A study of Mus musculus with 96 samples.

Results

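Histone chaperones are proteins that escort histones and hand them to, or take them from, DNA, and the levels of 10 of their genes were compared between wild type (WT) and CTCF-knockdown (CTCF-KD) mouse EL4 cells. The 10 genes were Set, Supt16 and Ssrp1, the 3 genes of the Anp32 family (Anp32a, Anp32b and Anp32e), the Nap1-like genes Nap1l1 and Nap1l4, and the Asf1 pair Asf1a and Asf1b. All 10 were listed by symbol among the 24057 genes of the deposited table. Set and Supt16 were chosen by the very contrast examined here, because both cultures labelled as knockdown held more of their message, so their differences between conditions are given as a description with no test. The other 8 genes were taken for their function, as relatives or partners of these.

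FACT is the complex of SUPT16 and SSRP1 that loosens and rebuilds nucleosomes in front of and behind RNA and DNA polymerases. SET binds histones, masks histone tails from acetylation and, like ANP32A, inhibits the phosphatase PP2A, and SET and ANP32A travel together in the SET complex. ANP32B also binds histones, ANP32E removes the variant H2A.Z, the NAP1-like proteins carry H2A and H2B, and ASF1A and ASF1B carry H3 and H4 to the assembly factors that work at replication forks and elsewhere.

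EL4 is a lymphoma-derived T cell line of a mouse labelled as strain C57BL/6. The WT cells carried a short hairpin RNA against luciferase (shLuc) and the CTCF-KD cells one against Ctcf (shCTCF), both delivered by virus. The study lists 2 hairpins against Ctcf, and whether shCTCF #1 and shCTCF #2 carried different ones is not settled by the sources used here. The Fluidigm C1 system was used to capture single cells for SMARTer sequencing. There were 4 cultures of 24 cells each, shLuc #1 and shCTCF #1 from the first experiment and shLuc #2 and shCTCF #2 from the second, and each was captured on its own circuit, so culture and circuit cannot be told apart. Cells of 1 culture are not replicates, so conditions were compared over 2 cultures against 2.

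After 1 shLuc #2 cell with 81 detected genes was left out, 47 WT and 48 CTCF-KD cells remained. The median cell held between 230477 and 247586 recovered reads in 3 cultures and 131098 in shCTCF #2, yet the median number of genes detected was 4771 and 4635 in the WT cultures and 6172.5 and 5656 in the CTCF-KD cultures. Ctcf itself, the targeted gene, was measured as TPM, a level per gene length that sums to the same total in every cell. Its means were 60.3 and 37.1 TPM for shLuc #1 and #2, 15.96 TPM for shCTCF #1 and 44.9 TPM for shCTCF #2. In these single-cell values the Ctcf message was therefore not lower in shCTCF #2 than in its own control. That culture is called by its label throughout. The SD over cells was 45.5 TPM in shLuc #2 and 50.0 TPM in shCTCF #2, where 17 and 20 cells held Ctcf reads. The study itself reported less Ctcf message by quantitative PCR and less CTCF protein by Western blot in both shCTCF #1 and shCTCF #2. The T cell markers Cd3d, Cd3g and Lck were among the most abundant messages, while each list of markers of B, myeloid, erythroid and fibroblast cells summed to at most 4.13 TPM in any culture, with Ms4a1, Lyz2 and Col3a1 at 0. The 9 T cell markers summed to 8262 and 8634 TPM over WT and to 6130 and 6439 TPM over CTCF-KD. In both CTCF-KD cultures 3 of them lay below both WT cultures, as did 16.9% of 11980 genes. The part of this lower sum in the other results was not tested.

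Set (chr2:30057378-30072577 on GRCm38, plus strand) was the most abundant of the 10 genes in 3 cultures, and in shLuc #2 it came second to Asf1b. Its mean level was 483 TPM in shLuc #1 (SD 268 over 24 cells) and 545 TPM in shLuc #2 (SD 300, 23 cells), whereas shCTCF #1 held 1276 TPM (SD 497, 24 cells) and the culture labelled shCTCF #2 held 1339 TPM (SD 595, 24 cells). The CTCF-KD cultures thus lay 2.64-fold and 2.46-fold above the control of the same experiment, while the WT cultures differed from each other by 0.17 and the CTCF-KD cultures by 0.07 on the log2 scale. The difference was spread over nearly all cells. Of the 48 CTCF-KD cells, 47 lay above the median WT cell of 479 TPM and 22 above the highest WT cell, and only 1 of the 47 WT cells lay above the median CTCF-KD cell of 1215 TPM.

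The exception was 1 cell of the culture labelled shCTCF #2 with 38.8 TPM of Set, where the next lowest cell of that culture held 565 TPM. It was the cell with the fewest recovered reads of its culture, 41591, and 3150 detected genes, and its Supt16 level was 254 TPM. The Set values rested on 4927 and 4627 recovered reads for the WT cultures, and on 12240 and 6729 for the CTCF-KD cultures. As RPM (reads scaled to a common total), with 95% Poisson intervals that cover counting error only, this was 796 (774 to 818), 842 (818 to 867), 2183 (2145 to 2222) and 2082 (2032 to 2132).

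Supt16 (chr14:52160414-52197416, minus strand), the larger FACT subunit, had a mean of 153 TPM (SD 88.6) in shLuc #1 and 159 TPM (SD 96.5) in shLuc #2, whereas shCTCF #1 held 333 TPM (SD 105) and the culture labelled shCTCF #2 held 293 TPM (SD 119). The folds within the experiments were 2.17 and 1.84. Both WT cultures were nearly equal and both lay well under both CTCF-KD cultures. The median cell held 150 TPM in WT and 292 TPM in CTCF-KD, 45 of 48 CTCF-KD cells lay above the WT median, 14 lay above the highest WT cell, and 4 of 47 WT cells lay above the CTCF-KD median. Reads of Supt16 were found in every kept cell of every culture, as were those of Set and Nap1l1 and of no other member.

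**Figure D1:**
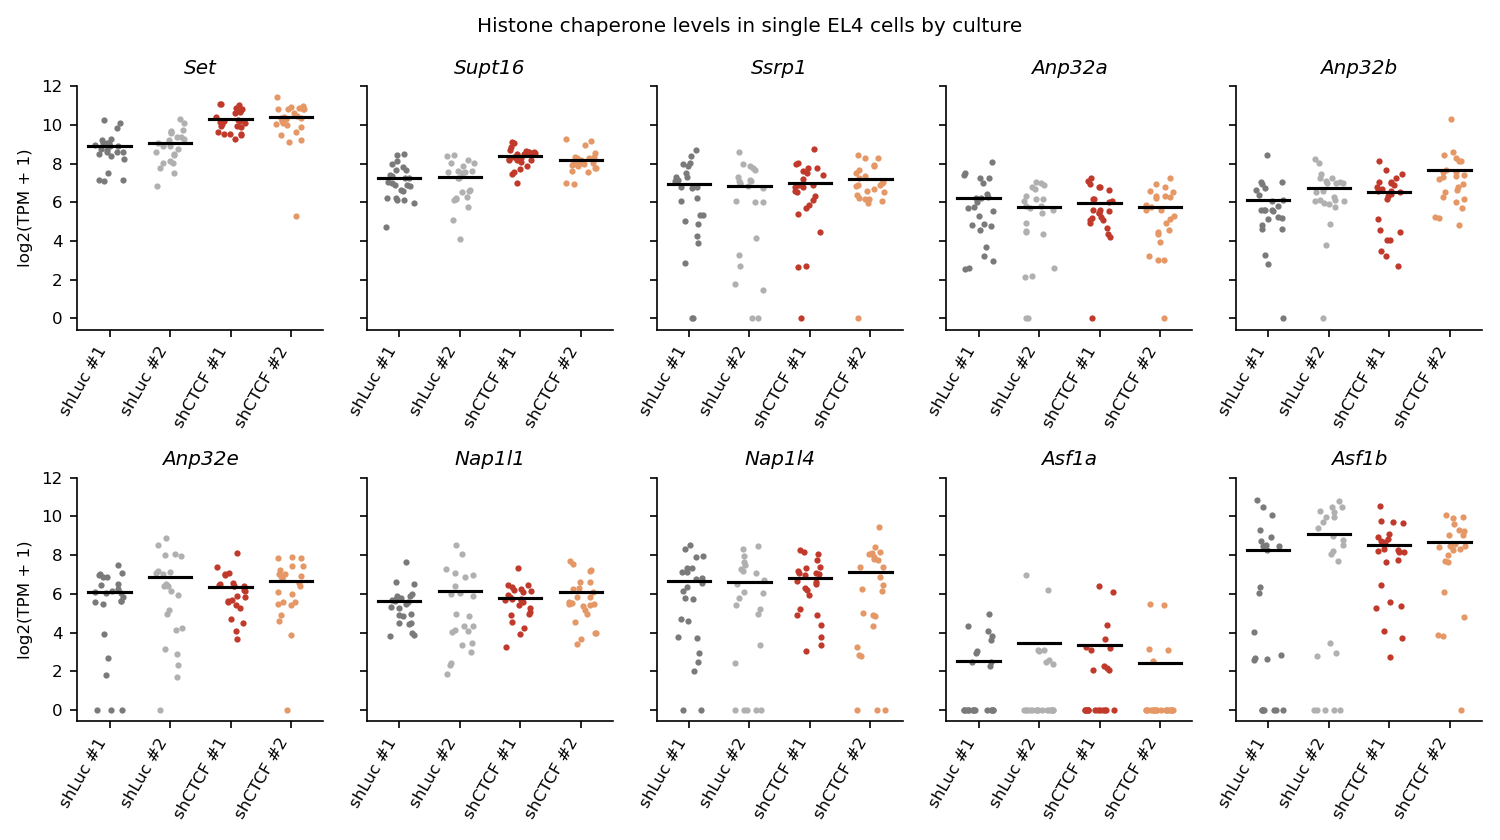
Each point is 1 cell, with log2(TPM + 1) on the y axis and the 4 cultures on the x axis, in 1 panel per gene. Black lines mark log2(mean TPM + 1) of the culture, the level used for the comparison. For Set and Supt16 most cells stand higher in the shCTCF cultures, with Set means of 1276 and 1339 TPM against 483 and 545 TPM, whereas Asf1b has a group of WT cells at or near 0.

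Part of the Supt16 locus is shared with another gene. At chr14:52160414-52163546 its exons overlap 1057 bases of exons of Rpgrip1 on the opposite strand, and the SMARTer chemistry does not mark the strand of a read, so reads from these bases cannot be assigned to either gene. Rpgrip1, known for its role in photoreceptor cilia, was listed at 83.8, 62.7, 233 and 140 TPM in shLuc #1, shLuc #2, shCTCF #1 and the culture labelled shCTCF #2, in the same order as Supt16 apart from the WT pair. How much of either gene's difference comes from the shared bases was not tested. Asf1a shares 1748 exon bases with Mcm9 on the opposite strand (0.0913 to 4.98 TPM) and Ssrp1 shares 51 with P2rx3, which was at 0 in all 4 cultures. For Set, 6 annotated gene copies matched it at 95% identity or more over at least 200 bases, and Anp32a and Nap1l1 had 1 such copy each. None of these copies is listed in the table, and since only uniquely placed reads were counted, reads from stretches identical between a gene and its copy may be missing from the values of Set, Anp32a and Nap1l1, which was not tested.

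Ssrp1 (chr2:85037234-85047109, plus strand) encodes the other FACT subunit, which binds SUPT16. Its mean was 121 TPM (SD 111) in shLuc #1, 112 TPM (SD 101.2) in shLuc #2, 127 TPM (SD 102) in shCTCF #1, and the culture labelled shCTCF #2 held 145 TPM (SD 90.1). The CTCF-KD means lay just above both WT means, but the log2 difference of 0.22 ± 0.34 (SE) did not pass the test (adjusted p = 0.913, limma on 4 culture values, Benjamini-Hochberg over 11980 genes). Taken as the mean over cells of log2(TPM + 1) the difference was 0.77, and with the number of genes detected per cell removed from that scale it was -0.10. The median cells held 110 TPM in WT and 115 TPM in CTCF-KD, and a few cells of each culture (2, 2, 1 and 1) held none. As a description, the ratio of Supt16 to Ssrp1 message was 1.27 and 1.42 in the WT cultures and 2.62 and 2.02 in the CTCF-KD cultures. Supt16 exceeded Ssrp1 in 14 of 22 and 13 of 21 WT cells with both messages, and in 22 of 23 and 20 of 23 CTCF-KD cells.

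Set's share of the summed message of the 10 genes was 33.8% and 29.9% in WT and 50.8% and 48.6% in CTCF-KD. The summed level of the 10 genes was 1431 and 1823 TPM in WT and 2511 and 2753 TPM in CTCF-KD, so the 2 chosen genes made up most of the added message.

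The Anp32 family encodes acidic, leucine-rich repeat proteins. Anp32a (chr9:62341293-62378812, plus strand), the partner of SET, had means of 73.1, 53.6, 60.9 and 53.6 TPM in shLuc #1, shLuc #2, shCTCF #1 and the culture labelled shCTCF #2. The groups overlapped, and the log2 difference was -0.13 ± 0.43 (adjusted p = 0.967, limma). It was higher in shLuc #1 than in the other 3 cultures.

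Anp32b (chr4:46450902-46472657, plus strand) had the largest difference of the 8 genes not chosen by this contrast. Its means were 68.5 TPM (SD 70.6) in shLuc #1, 106 TPM (SD 72.6) in shLuc #2, 90.95 TPM (SD 69.4) in shCTCF #1, and the culture labelled shCTCF #2 held 202 TPM (SD 244). Only the last stood above both WT cultures. Of its cells, 1 reached 1245 TPM, and that was the cell with 38.8 TPM of Set and 41591 recovered reads. The median cell held 47.4, 91.8, 93.2 and 154 TPM in this order of cultures. Each CTCF-KD culture was above the control of its own experiment, by 1.33-fold and 1.90-fold, and 35 of 48 CTCF-KD cells lay above the WT median cell of 67.3 TPM. The log2 difference of 0.66 ± 0.50 did not pass the test (adjusted p = 0.794, limma), and over 14 other ways of processing it ranged from 0.09, without the culture labelled shCTCF #2, to 1.24, without shCTCF #1, with no adjusted p below 0.417.

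Anp32e (chr3:95929246-95947390, plus strand), the H2A.Z chaperone, had means of 66.3, 116, 79.4 and 102 TPM in the same order of cultures, with a log2 difference of 0.04 ± 0.44 (adjusted p = 0.994). It was higher in CTCF-KD in the first experiment (log2 0.26) and lower in the second (log2 -0.18). Cells under 10 TPM numbered 5 and 5 in the WT cultures and 0 and 1 in the CTCF-KD cultures, so its means were alike while its low cells were mostly WT cells.

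Nap1l1 (chr10:111473223-111498150, plus strand) had means of 49.1, 70.2, 54.3 and 67.4 TPM, with a log2 difference of 0.04 ± 0.44 (adjusted p = 0.994). In both conditions the second culture stood above the first in mean TPM. Its median cell stood below that of the first, at 45.5 and 28.2 TPM in WT and 50.6 and 46.3 TPM in CTCF-KD. Nap1l4 (chr7:143513579-143549106, minus strand) had means of 100.96 and 96.9 TPM in WT and 113 and 140 TPM in CTCF-KD, with no overlap of the groups but a log2 difference of 0.34 ± 0.36 that did not pass the test (adjusted p = 0.860).

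Asf1a (chr10:53596757-53609225, plus strand) was the least abundant member, at 4.86, 10.1, 9.17 and 4.40 TPM. It was detected in 10 of 24, 8 of 23, 11 of 24 and 5 of 24 cells, on 15 to 80 recovered reads a culture, and its difference (log2 -0.12 ± 0.92, adjusted p = 0.988) was not detectable at this depth. Its paralogue Asf1b (chr8:83955507-83970197, plus strand), the form tied to dividing cells, stood above Set in shLuc #2 and second to it in the other 3 cultures. Its means were 310 TPM (SD 493) in shLuc #1, 554 TPM (SD 574) in shLuc #2, 368 TPM (SD 350) in shCTCF #1, and the culture labelled shCTCF #2 held 406 TPM (SD 314). Both CTCF-KD means lay between the WT means, and the log2 difference was -0.10 ± 0.37 (adjusted p = 0.972).

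The means of Asf1b overlapped between the conditions, but the distributions over cells differed in their low end. Cells under 10 TPM numbered 11 of 24 in shLuc #1 and 7 of 23 in shLuc #2, but 1 of 24 in shCTCF #1 and 1 of 24 in the culture labelled shCTCF #2. The median cell held 40.01, 364, 303 and 358 TPM in this order of cultures, while the highest cell reached 1847 and 1786 TPM in WT and 1491 and 1092 TPM in CTCF-KD. After thinning to 80000 reads, which left out the 1 shallower cell of the culture labelled shCTCF #2, reads of Asf1b were found in 16 of 24, 16 of 23, 23 of 24 and 22 of 23 cells. The median number of genes detected in the thinned cells still differed, at 4164 and 4005 in WT and 5232.5 and 5222 in CTCF-KD. When the level of a culture was taken as the mean over cells of log2(TPM + 1), which weights low cells more, Asf1b was higher in CTCF-KD by 1.91 on the log2 scale (adjusted p = 0.158), and the range of adjusted p over all alternatives for this gene was 0.158 to 1. With the number of genes detected removed from this scale the difference was -0.02. WT cells also held fewer detected genes, and their part in the Asf1b distribution beyond this value was not tested.

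The counts over the 10 genes were read against those over all genes. Both CTCF-KD cultures lay above both WT cultures for 4 of the 10, namely Set, Supt16, Ssrp1 and Nap1l4, and so for 2 of the 8 genes that the contrast did not choose, where the background was 19.9% of 11980 genes. None lay below both WT cultures, against 16.9% of genes. No member and no gene at all passed an adjusted p of 0.05 (background 0% higher and 0% lower in CTCF-KD, limma), and at an unadjusted p of 0.05 none of the 8 passed, where 4.79% of genes did so higher and 2.82% lower in CTCF-KD. Adjusted p for the 8 ran from 0.794 to 0.994, and the smallest over all genes was 0.585. The median log2 difference was 0.13 over the 10 members and 0.04 over all genes. The 10 include Set and Supt16, which the contrast chose, so no rise of the list is read from this median. Differences of the other 8 ran from -0.13 (Anp32a) to 0.66 (Anp32b). These counts lean on single cultures: without shLuc #2, 8 members lay above and 1 below the WT culture left (39.2% and 29.8% of all genes), without shLuc #1, 4 lay below it (37.9%), and without shCTCF #1, 2 lay below both WT cultures (26.6%).

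**Figure D2:**
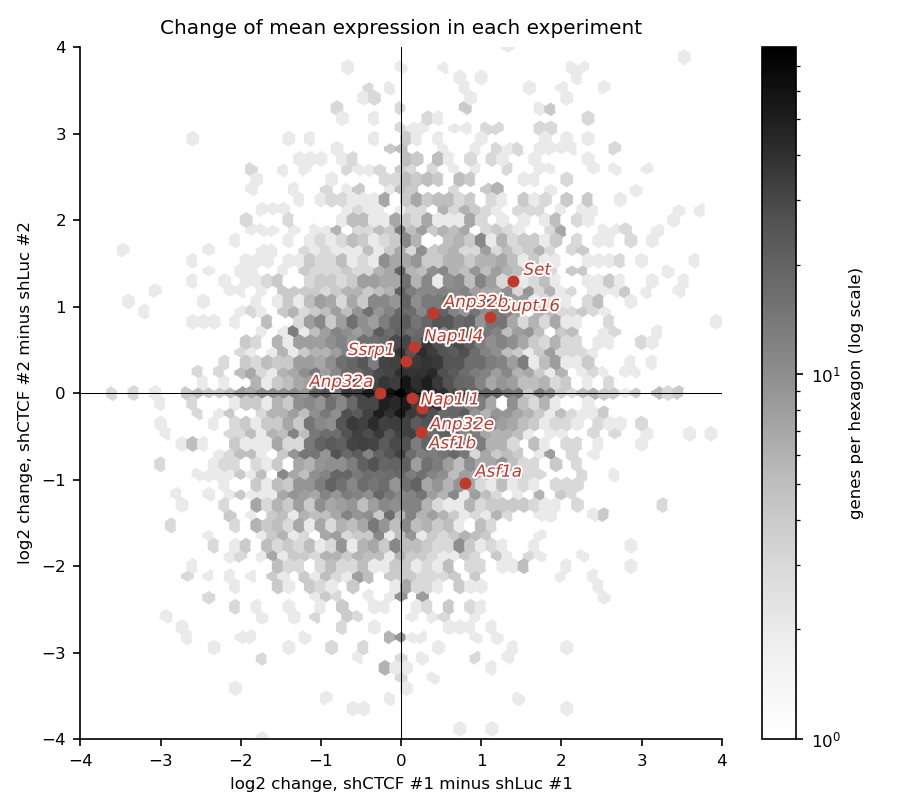
The log2 difference in mean expression, CTCF-KD minus WT, is plotted for the first experiment on the x axis and the second on the y axis, with genes as grey hexagons shaded by number on a log scale and the 10 histone chaperones as red points. The axes end at 4 in each direction and genes beyond them are not drawn. Set lies at 1.40 and 1.29 and Supt16 at 1.11 and 0.88, while Anp32e, Nap1l1, Asf1a and Asf1b have opposite signs in the 2 experiments.

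The 9 members with an entry in the promoter table of RefSeq (GRCm38.p6) had windows of 250 bases before an annotated start with a median of 65.6% G and C and 24 CpG, where the median over all 32851 such windows was 52.4% and 6. Nap1l4 had no entry, and Set and Ssrp1 had 2 windows each. Of the motifs searched on both strands, each matched without regard to overlap with another, the E-box CACGTG stood before 3 of the 9 genes (Set, Supt16 and Anp32b), where 6.02% of all windows hold it. The motifs were picked with the levels of these genes known, so nothing is read from which genes hold one. The GC box GGGCGG stood before 7 genes (32.7% of all windows), CCAAT before 7 (33.8%), the E2F-type motif TTTNNCGC before Supt16 and Ssrp1, the 2 FACT genes (4.28%), and the CTCF core AGGNGGC before Set, Anp32b and Asf1b (25.004%). A match is a string of letters and not a binding site.

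The 3 stretches with an E-box are printed 5′ to 3′ on the gene's strand to show where it lies, with CACGTG in capitals. The stretch of Set is chr2:30061850-30061879, with the match 134 bases before the RefSeq start. It is cut to 30 bases because the match is not in the longest exon-free run of its window. The stretch of Supt16 is chr14:52197417-52197489, upstream of every annotated exon of the gene, with the match 220 bases before the RefSeq start, and that of Anp32b is chr4:46450676-46450901, with the match 96 bases before it.
Set: gccacaggcttcCACGTGcaacccggggtt
Supt16: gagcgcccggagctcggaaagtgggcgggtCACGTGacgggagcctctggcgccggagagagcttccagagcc
Anp32b: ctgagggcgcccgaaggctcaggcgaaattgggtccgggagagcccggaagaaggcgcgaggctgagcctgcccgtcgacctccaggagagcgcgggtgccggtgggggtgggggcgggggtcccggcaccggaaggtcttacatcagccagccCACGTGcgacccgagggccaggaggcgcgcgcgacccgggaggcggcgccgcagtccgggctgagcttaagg

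Asf1b and Anp32e had the most CCAAT matches, 4 each in 250 bases. In the exon-free stretches printed here, chr8:83955444-83955506 for Asf1b and chr3:95929007-95929245 for Anp32e, both on the plus strand, capitals mark CCAAT or its reverse complement.
Asf1b: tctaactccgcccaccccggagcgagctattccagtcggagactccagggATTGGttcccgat
Anp32e: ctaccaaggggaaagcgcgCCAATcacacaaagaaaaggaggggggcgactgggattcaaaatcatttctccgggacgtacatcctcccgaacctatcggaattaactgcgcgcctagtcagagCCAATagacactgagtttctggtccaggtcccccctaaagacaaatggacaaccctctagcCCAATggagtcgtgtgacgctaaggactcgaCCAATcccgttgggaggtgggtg

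Within gene families, the balance between paralogues was compared as a share of their summed TPM, by exact permutation tests (two-sided) that set 2 cultures against 2, where 0.333 is the smallest p. Anp32b made up 32.96% and 38.6% of the Anp32 message in WT and 39.3% and 56.5% in CTCF-KD. The mean difference was 12.2 percentage points (exact permutation p = 0.333, adjusted over 3 shares 0.5). It was 3.58 without the culture labelled shCTCF #2 and 20.7 without shCTCF #1. With thinned reads, which leave out the cell with 1245 TPM of Anp32b, it was 7.57. In these shares of mean TPM the groups did not overlap, but the lower CTCF-KD share lay within 1 percentage point of the higher WT share. The median over cells of the share was 28.6% and 44.4% in WT and 38.4% and 52.6% in CTCF-KD, which do overlap. Nap1l1 made up 32.7% and 42.03% of the Nap1l1 and Nap1l4 message in WT and 32.5% in each CTCF-KD culture (exact permutation p = 0.333, adjusted 0.5). The mean difference of -4.90 percentage points was -0.25 without shLuc #2 and -9.54 without shLuc #1. For Nap1l1 the median over cells of the share was 45.9% and 29.6% in WT and 30.4% and 38.7% in CTCF-KD. Asf1b supplied 98.5%, 98.2%, 97.6% and 98.9% of the Asf1 message in the 4 cultures (exact permutation p = 1), so nearly all Asf1 message in these cells came from this form.

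**Figure D3:**
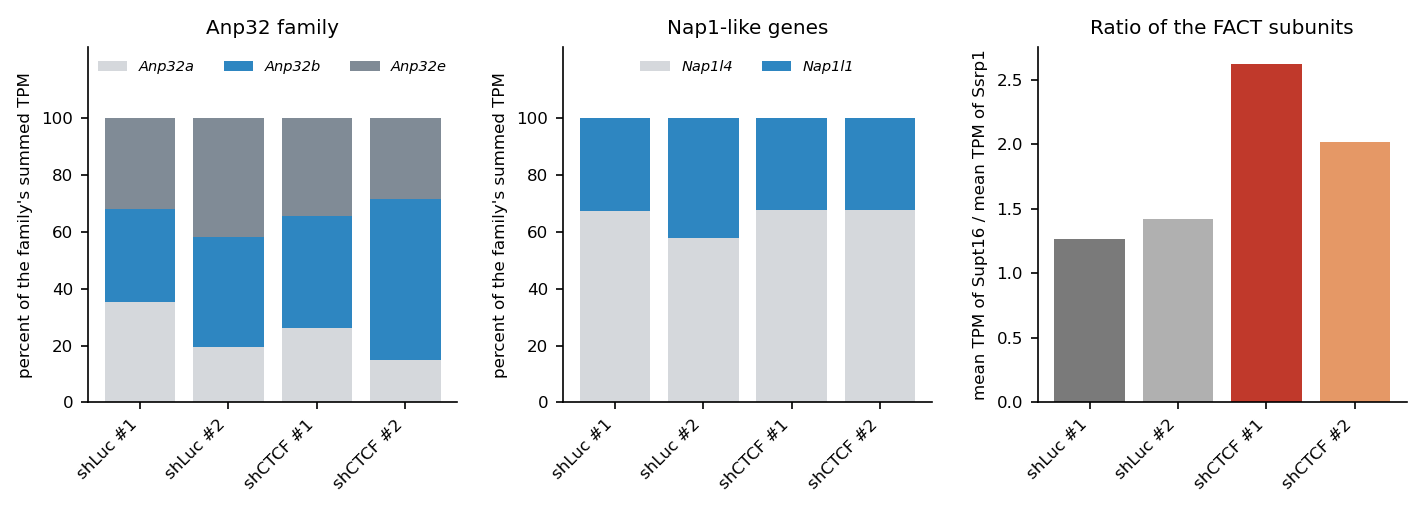
Stacked bars give the percent of the family's summed mean TPM for the Anp32 genes (left) and the Nap1-like genes (middle) in the 4 cultures, and bars on the right give mean Supt16 over mean Ssrp1. Anp32b takes 56.5% of its family in the culture labelled shCTCF #2 and between 32.96% and 39.3% in the others, and the FACT ratio is 2.62 and 2.02 in the shCTCF cultures against 1.27 and 1.42 in the shLuc cultures.

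Cell-to-cell variation was measured as the coefficient of variation (CV, SD over mean) of log2(TPM + 1) among the cells of each condition. Set and Supt16 had the lowest CV of the members, 0.096 in WT and 0.090 in CTCF-KD for Set and 0.141 and 0.065 for Supt16. They also had the highest mean log2(TPM + 1), and the CV tends to fall as this mean rises. The median CV of genes of like mean was 0.154 in WT and 0.079 in CTCF-KD for Set, and 0.331 and 0.176 for Supt16. In CTCF-KD the SD of Supt16 over cells was 0.53 on the log2 scale, against 0.99 in WT. Its cells were thus higher and, on this scale, more alike. In TPM its SD was higher in the CTCF-KD cultures, at 105 and 119 against 88.6 and 96.5 in WT. For Set the SD on the log2 scale was 0.84 in WT and 0.91 in CTCF-KD over the pooled cells. By culture it was 0.83 in shLuc #1 and 0.56 in shCTCF #1, and 0.87 and 1.18 in the second experiment. The last value includes the cell with 38.8 TPM, so no change in the SD of Set is read from the pooled values. The CV of Set was 0.095 in shLuc #1 and 0.055 in shCTCF #1, and 0.098 and 0.116 in the second experiment, where the cell with 38.8 TPM lies. Asf1b had the widest difference, with 0.728 in WT and 0.290 in CTCF-KD, where genes of like mean had a median CV of 0.462 and 0.201.

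In all, 9 of the 10 members had a lower CV in CTCF-KD, as did 81.5% of 7843 genes, for which the mean CV difference was -0.28. A gene was called when its difference lay beyond the mean difference by more than 1 SD (0.406). By this rule 1 member, Asf1a, was called as more variable in CTCF-KD (CV 1.42 in WT and 1.58 in CTCF-KD, background 7.68%), and none as less variable (background 11.3%). The call of Asf1a rests on a gene at 0 in most cells. It was lost without shLuc #1 and without shCTCF #2, which left 0 members called, and in the first experiment alone its CV was 1.27 in WT and 1.28 in CTCF-KD.

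**Figure D4:**
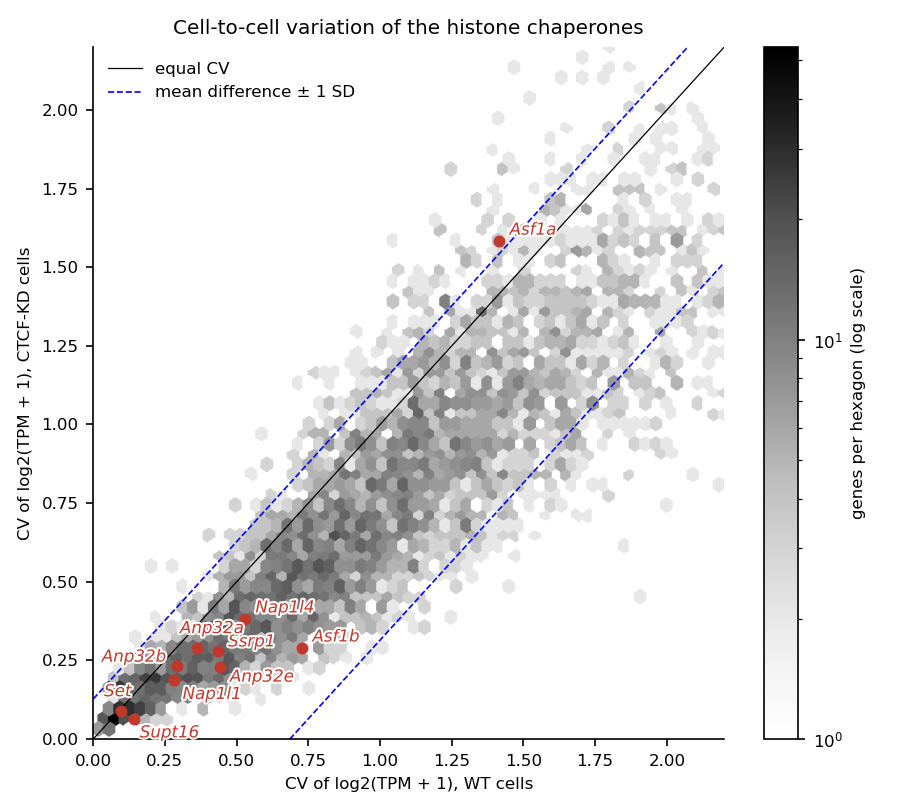
The CV of log2(TPM + 1) over cells is plotted for WT on the x axis and CTCF-KD on the y axis, with genes as grey hexagons shaded by number on a log scale, the histone chaperones as red points, the line of equal CV and the dashed lines of the calling rule. Both axes end at 2.2. Points other than Asf1a lie under the line of equal CV, as 81.5% of genes do, and Asf1a lies just above the upper dashed line.

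Correlations between the members over cells were weak. With log2(TPM + 1) centred within each culture, the 45 pairs had a median Spearman correlation of 0.075 over 95 cells and a range of -0.235 to 0.365, and 32 pairs were above 0. These are descriptions over cells that share libraries, depth and the scaling to a common total, and such weak values in sparse data are no finding. The 2 FACT subunits had a correlation of 0.075, and Set and Supt16 one of 0.183, with values from -0.033 to 0.444 in the single cultures. Set and Anp32a, partners in the SET complex, had 0.094.

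Asf1b had the highest correlations of the members with the levels of cell cycle genes. Its level had a correlation of 0.651 with the mean level of 19 S phase genes and of 0.660 with that of 16 G2/M genes, and each was above 0 in every culture, between 0.357 and 0.769 for the S phase genes and between 0.472 and 0.762 for the G2/M genes. Anp32e followed with 0.402 and 0.462, and Ssrp1 with 0.358 and 0.362. Set had 0.170 and 0.142 and Supt16 -0.028 and -0.137, well under the values of Asf1b. All are centred within cultures, so the difference between conditions does not enter them. The part of the cell cycle in that difference was not tested. The number of genes detected had a correlation of 0.372 with Asf1b, -0.023 with Set and -0.108 with Supt16. It also had one of 0.488 with the S phase level and of 0.475 with the G2/M level. The part of genes detected in the values of 0.651 and 0.660 was not tested. With genes detected removed, the pair of Asf1b and Anp32e went from 0.365 to 0.311.

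**Figure D5:**
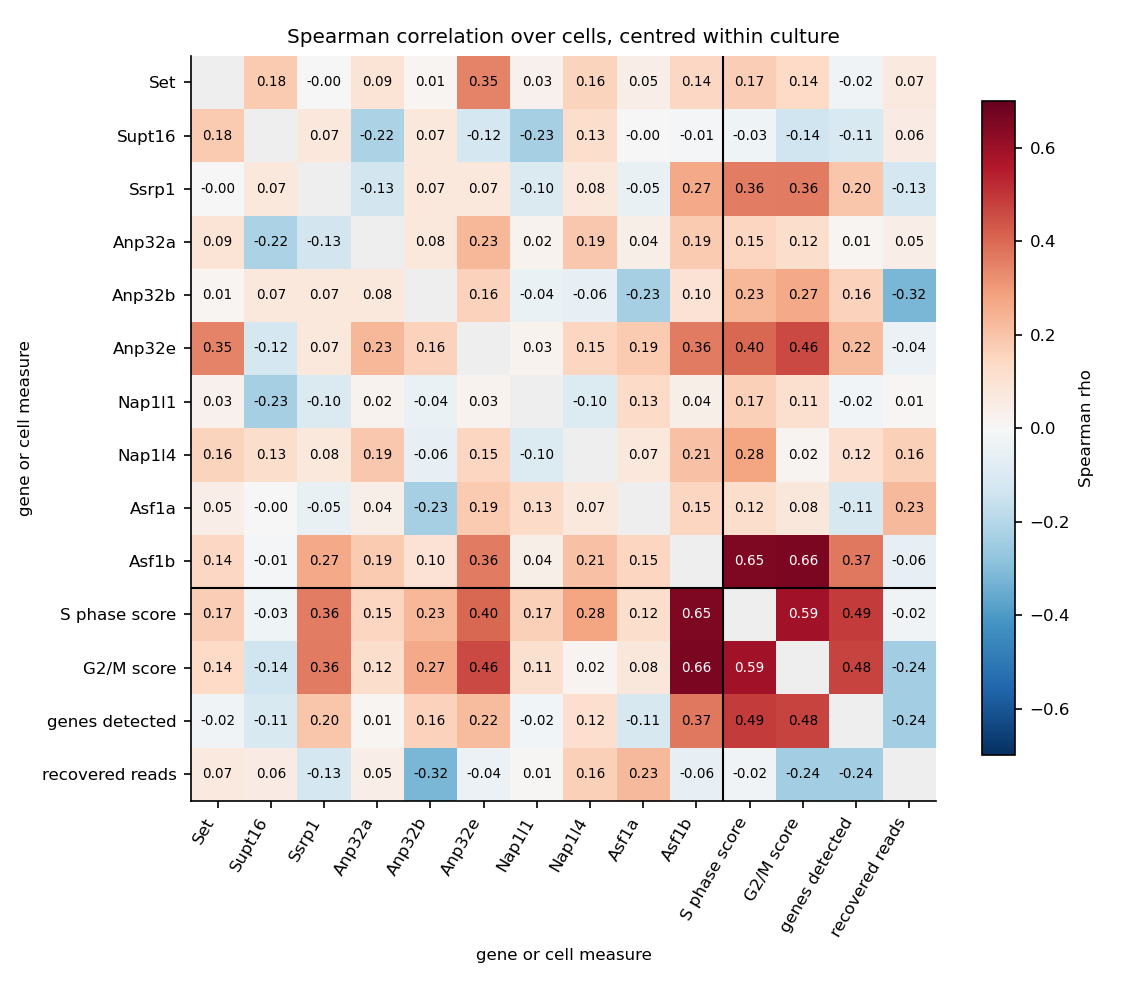
Spearman correlations over 95 cells, after centring within culture, are shown for the 10 histone chaperones, the S phase and G2/M scores, the number of genes detected and the recovered reads, with red for positive and blue for negative values. The row of Asf1b is the reddest against the scores (0.651 and 0.660), and the rows of Set and Supt16 are pale.

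The genes whose levels over cells were most like that of Set, among 7145 genes found in at least 30% of cells, were Atp5c1 (0.496), a subunit of the mitochondrial ATP synthase, Rpl7a (0.464), a ribosomal protein, Phax (0.445), an RNA export adaptor, Plekhj1 (0.415) and Rpgrip1 (0.402). Of these, Atp5c1 was at 1106 and 1406 TPM in WT and lower without overlap in CTCF-KD, at 977 and 1081 TPM. Plekhj1 (153 and 146 TPM against 235 and 162 TPM) and Rpgrip1 did not overlap either and stood higher in CTCF-KD, as Set did. Rpl7a (428 and 536.8 TPM against 524.3 and 491.5 TPM) and Phax (89.9 and 87.9 TPM against 78.5 and 117 TPM) overlapped. Of all genes, 19.9% lay above and 16.9% below both WT cultures. For Supt16 the list was led by Rpgrip1 (0.536), the gene that shares its exon bases, followed by Tmem106c (0.399), Eif3m (0.392), Rbmxl1 (0.355) and Brix1 (0.353). The top 1% of genes began at 0.305 for Set and 0.248 for Supt16.

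The known partners of these chaperones were counted from lists, none of which held a gene that passed the adjusted threshold, and the shares above and below both WT cultures are to be read against 19.9% and 16.9% of all genes. Of 8 genes for the SET complex and PP2A, 3 lay above both WT cultures and none below. Their median log2 difference was -0.06, with medians of 0.43 in the first experiment and 0.25 in the second. Apex1, the base excision repair nuclease of the SET complex, was at 26.9 and 51.9 TPM in WT and 193 and 200.8 TPM in CTCF-KD (log2 2.37 ± 0.45, adjusted p = 0.585). Nme1, the nucleoside diphosphate kinase of the same complex, was at 988 and 807 TPM in WT and 1926 and 1559 TPM in CTCF-KD (log2 0.96 ± 0.30, adjusted p = 0.595). In both genes the groups stood well apart, while Ppp2r1a, the scaffold subunit of PP2A, overlapped at 434, 318, 279 and 447 TPM.

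Among the 12 elongation partners of FACT, 1 lay above and 2 below both WT cultures, with a median log2 difference of -0.06. The most abundant gene of that list, Supt4a, an elongation factor subunit, was at 188 and 262 TPM in WT and 185 and 242 TPM in CTCF-KD. Of 12 Asf1 partners 3 lay above and 1 below, of 11 genes for H2A.Z exchange 2 above and 1 below, and of 9 replication-independent histone genes 3 above and 1 below, H3f3b among them at 448 and 571 TPM in WT and 668 and 770 TPM in CTCF-KD. The other histone chaperones split about evenly, with 6 of 28 above and 7 below both WT cultures. Their 3 most abundant genes were Npm1 (816, 1178, 932 and 1648 TPM), the nucleolar histone chaperone, Rbbp7 (177, 282, 366 and 451 TPM), a histone-binding subunit of several chromatin complexes, and Ncl (112, 165, 173 and 307 TPM), the nucleolar protein nucleolin.

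Of 19 S phase genes, 9 lay above both WT cultures (19.9% of all genes), with a median log2 difference of 0.70. In both experiments 16 of them were higher in CTCF-KD, as were 3606 of all 11980 genes. Of 16 G2/M genes, 7 lay below both WT cultures (16.9% of all genes) and none above, with a median of -0.30. The S phase genes summed to 1303 and 2709 TPM in WT and to 2563 and 3282 TPM in CTCF-KD, so the sums of the 2 conditions overlapped, and the part of cell cycle position in the levels of Asf1b, Anp32e and Ssrp1 was not tested.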

How the data were processed

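The authors aligned reads to GRCm38 with STAR, counted uniquely mapped reads on RefSeq genes with HTSeq and deposited TPM values for 96 cells. Whether counting used strand is not given in the sources used here. Cells with fewer than 3000 genes above 0 were left out. The TPM values were whole multiples of a step per gene and cell factor (100% of 504524 values within 0.001), so whole reads were recovered, taking the smallest step as 1 read. They were used for depth, RPM, Poisson intervals and thinning to 80000 reads, with no count model.

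A culture's level was log2(mean TPM + 1). The filter asked for log2(TPM + 1) above 1 in 2 or more cells, and genes that passed were tested with limma 3.58.1 (trend, R 4.3.3) over 4 culture values, with Benjamini-Hochberg adjustment. An SE is that of limma. CV used genes with a mean log2(TPM + 1) above 1. Fits and the recovery of reads were tested on simulated data. Positions and exons came from the GRCm38 GENCODE annotation. Named genes were the 10 members, the 3 most abundant genes of a list and the 5 most similar genes over cells, of which the text gives a part. Genes that share exon bases, and the motifs, were chosen after values were seen. The members and lists were chosen with earlier results of these data known.

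The same culture number marks the same experiment in the study's methods. Deviations of same-numbered cultures from their condition means had a correlation of 0.175 over genes, and the experiment was tried as a replicate block. The second pair of cultures came from a second knockdown, so p-values measure the spread between 2 experiments. Without molecular identifiers, 2 reads may stem from 1 molecule.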

Additional observations from a re-analysis of the deposited data

Results flagged for a closer look

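In 4 of the 10 genes the CTCF-KD culture lay above its control in the first experiment and below it in the second. With 1 culture per condition and experiment, the difference between the experiments was not tested. The log2 differences were 0.26 and -0.18 for Anp32e, 0.14 and -0.060 for Nap1l1, 0.79 and -1.04 for Asf1a and 0.24 and -0.45 for Asf1b. For Anp32e, Nap1l1 and Asf1a the WT cultures differed from each other by 0.80, 0.51 and 0.92 on the same scale, and for Asf1b by 0.83, each more than the mean difference between conditions. Ctcf also differed between the experiments, with a log2 difference of -1.85 in the first and 0.27 in the second.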

How the results depend on the processing

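No alternative brought any of the 8 genes not chosen by the contrast past an adjusted p of 0.05 (limma). With the experiment as a replicate block, 0 members were called in each direction, the median log2 difference stayed at 0.13, and adjusted p ran from 0.417 (Anp32b) to 0.977 (Nap1l1), so the paired fit changed no call. Set stayed between 1.17 and 1.44 and Supt16 between 0.90 and 1.22 on the log2 scale over 14 alternatives. Shares of paralogues have no blocked value, and leaving out 1 culture moved the difference in the share of Anp32b between 3.58 and 20.7 and that of Nap1l1 between -9.54 and -0.25 percentage points.

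With the level taken as the mean over cells of log2(TPM + 1), which moved the median of all genes from 0.04 to 0.23, 7 members lay above both WT cultures, as did 36.2% of all genes, and the members' median was 0.72. Anp32a was then at 0.14 and Asf1b at 1.91. With thinned reads the median was 0.22, Nap1l1 was at -0.054, Asf1b at 0.018 and the difference in the share of Asf1b was 0.89 percentage points. With the number of genes detected removed from the mean over cells of log2(TPM + 1), so that the scale also differs from the one reported, Ssrp1 was at -0.10, Anp32a at 0.0079 and Asf1a at 0.13. Taking the median over cells of the share of Asf1b gave a difference of 0.069 percentage points. The cause of these changes was not tested. Each median of the members given in this section includes Set and Supt16, which the contrast chose.

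Leaving out 1 culture at a time gave 4 to 8 members above and 0 to 4 below the WT cultures, where 31.3% to 39.2% and 26.6% to 37.9% of all genes were, and a median of 0.11 to 0.33. It gave log2 differences from -0.35 to 0.090 for Anp32a, -0.36 to 0.44 for Anp32e, -0.21 to 0.29 for Nap1l1, -0.58 to 0.34 for Asf1a and -0.52 to 0.32 for Asf1b. The difference in its share of the Asf1 message ran from -0.77 to 0.59 percentage points, and 0 to 1 members were called as more variable. Anp32b rested most on 1 culture, at 1.24 without shCTCF #1 and 0.09 without shCTCF #2.

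By CV, 0 members were called as more variable with log2(TPM + 10), in the first experiment alone and at 2 SD, and 1 (Asf1b) was called as less variable with log2(TPM + 10). On the linear scale Anp32b was called as more variable in place of Asf1a, with its cell of 1245 TPM in shCTCF #2 included. Depth limits Asf1a most, with 15 to 80 recovered reads a culture.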
